A study of Mus musculus with 21 samples.

Results

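The genes of the cell cycle and of DNA replication were followed in mouse liver after antagonism of microRNA-122, the dominant microRNA of hepatocytes. They were chosen by symbol, as 42 genes of 3 roles: 14 genes of replication, licensing and nucleotide supply, 23 genes of mitosis, and 5 cyclins and transcription factors of the G1 phase. The genes were listed with earlier results of these data known. Of the 42 genes, 41 had a probe set annotated to that gene alone and were measured, out of 18193 genes in all. The mitotic cyclin Ccnb1 had no such probe set in the annotation used here and is not described. Where a gene had several probe sets, the brightest over all arrays stood for it.

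The 18 female NMRI mice, of an outbred stock, formed 6 groups of 3. Mouse numbers 1, 2 and 3 recur in the saline groups of day 3 and day 9, and number 8 in the treated groups of those days. Each of the 18 arrays was taken as a separate mouse. At day 3, day 9 and day 23, livers came from mice given antimiR-122 (SPC3372, a locked nucleic acid oligonucleotide) at 25 mg/kg on day 2, and from mice given saline as vehicle on that day. The design calls the 3 mice of a group biological replicates. Whole liver RNA was hybridised to Affymetrix arrays, and all values below are RMA log2 expression levels, in which a step of 1 is a doubling. With 3 arrays a group, precision is limited. RMA narrows differences at low signal, so the fold of a dim gene may be too small. A probe set is called dim here where its mean lay under 4.79, the median of all probe sets, and 22 of the 41 genes were dim: 16 of 22 mitosis genes, 4 of 14 replication genes and 2 of 5 G1 genes. Array medians lay between 4.75 and 4.82. Markers of hepatocytes averaged 13.04 to 13.11 in treated mice and 12.96 to 13.09 in saline mice at day 3, among the brightest values of the arrays.

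Most hepatocytes of an adult liver are quiescent. On entry into the cycle, D-type cyclins act in G1, E2F factors then switch on the genes that license origins and copy DNA, and a later wave of genes builds the spindle, condenses and separates the chromosomes and divides the cell. The promoters of the later wave often carry a short element known as the cell cycle genes homology region, or CHR, while E2F elements are typical of the replication genes. In whole liver the RNA of these genes can come from hepatocytes or from any other dividing cell, and more cells of a type and more RNA per cell cannot be told apart.

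At day 3, the day after dosing, 5 of the 41 genes were higher in treated than in saline livers and none were lower, with limma and Benjamini-Hochberg adjustment over all 18193 genes. They were the replication genes Mcm5 and Cdc6 and the mitosis genes Cdk1, Top2a and Cdca8. Over all genes, 2.63% rose and 1.88% fell at this day. Mcm5 is a subunit of the MCM helicase that unwinds DNA at the fork. Its level was 7.05, 6.75 and 5.93 in the treated mice, against 4.82, 5.37 and 5.06 in the saline mice. The groups did not overlap, and treated replicate 3 was the lowest of its group. The difference was 1.49 ± 0.29 (SE, n = 3 each), or 2.82-fold, with an adjusted p of 0.00604. Cdc6 loads that helicase onto origins and was dim. It read 3.31, 3.86 and 3.49 in treated livers and 3.13, 2.97 and 2.97 in saline livers. Its groups were separate too, with a difference of 0.53 ± 0.13, or 1.44-fold (adjusted p = 0.0249).

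Cdk1, the kinase that drives cells into mitosis, had levels of 7.11, 7.02 and 6.09 in treated mice, against 5.56, 5.67 and 5.59 in saline mice. The saline mice were nearly alike and all treated mice lay above them, by 1.13 ± 0.21 on average (SE, n = 3 each), which is 2.19-fold (adjusted p = 0.00432). Top2a, the topoisomerase that untangles sister chromatids, read 5.32, 5.55 and 4.46 in treated livers and 3.96, 3.99 and 3.91 in saline livers. It rose 2.22-fold (difference 1.15 ± 0.26, adjusted p = 0.0158). Cdca8, or borealin, belongs to the chromosomal passenger complex that corrects the attachment of chromosomes to the spindle. It had 5.90, 6.05 and 5.26 in treated mice and 4.91, 4.73 and 4.82 in saline mice, a rise of 0.91 ± 0.24, or 1.89-fold (adjusted p = 0.0370). In Mcm5, Cdk1, Top2a and Cdca8 alike, treated replicate 3 lay well under its 2 companions and above every saline mouse. Cdc6 differed in this, with its lowest treated value in replicate 1.

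**Figure D1:**
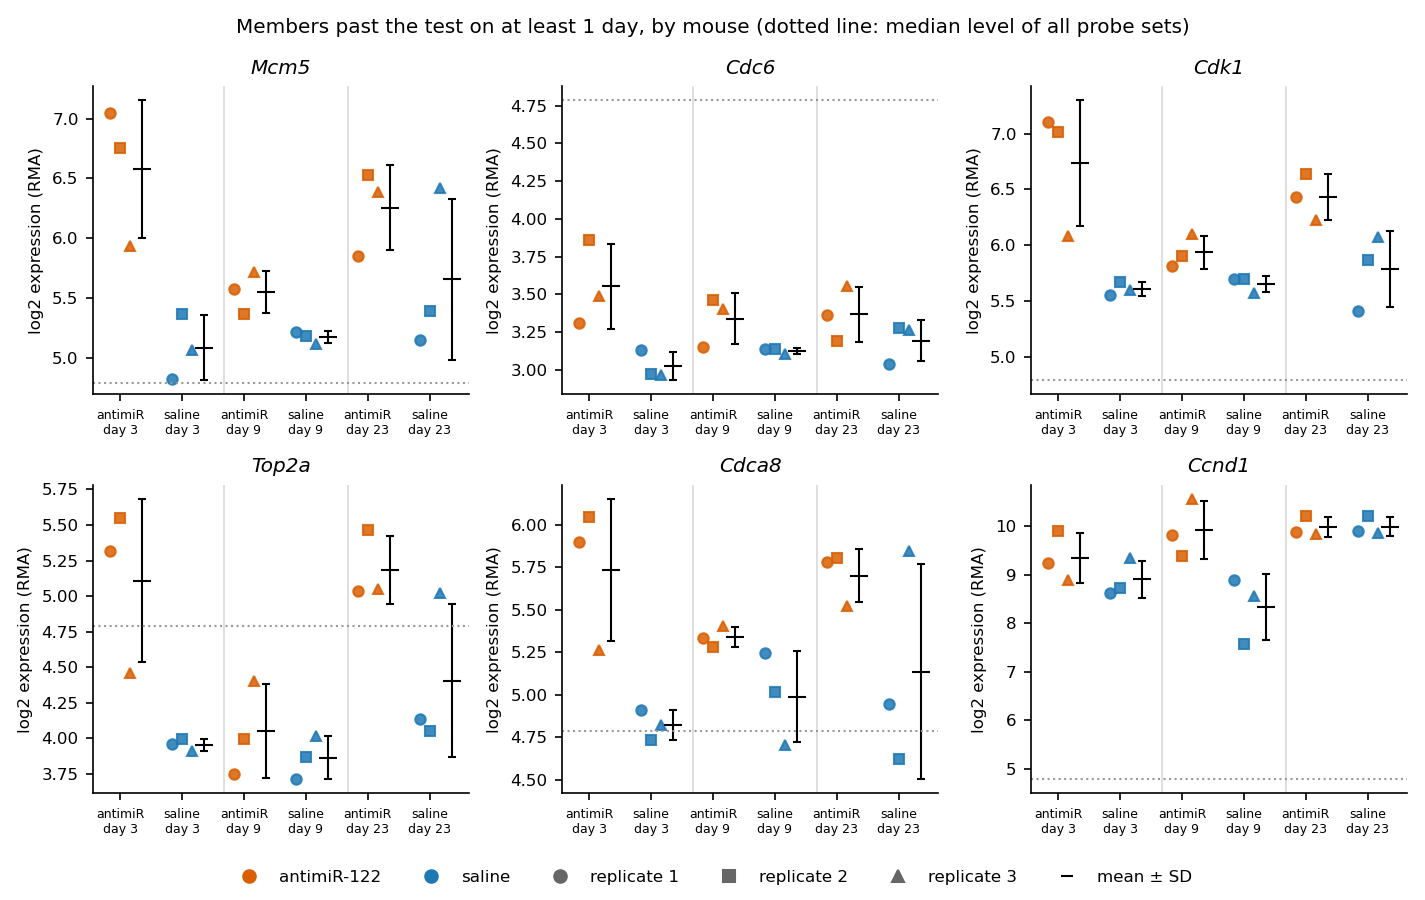
Log2 expression level of the 6 genes that passed the test at day 3 or day 9, by day, with antimiR mice left of saline mice; each point is a mouse (its shape the replicate number), black marks are the mean ± SD of 3 mice and the dotted line is the median level of all probe sets (4.79). Cdk1 and Mcm5 stand apart at day 3 with no overlap, and Ccnd1 at day 9.

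The promoters of the 4 genes with the lowest adjusted p at day 3 are shown because the same letters recur among the members. They are RefSeq's 200 bases before the annotated start in build GRCm38.p6, 5′ to 3′ along the gene: Mcm5 at chr8:75109309-75109508 on the plus strand, Cdc6 at chr11:98907951-98908150 on the plus strand, Cdk1 at chr10:69352913-69353112 on the minus strand and Top2a at chr11:99024190-99024389 on the minus strand. Capitals mark a CHR element (TTTGAA or TTCAAA) or an E2F element (TTCCCGC or TTGGCGC, or these read on the other strand, GCGGGAA or GCGCCAA).
Mcm5: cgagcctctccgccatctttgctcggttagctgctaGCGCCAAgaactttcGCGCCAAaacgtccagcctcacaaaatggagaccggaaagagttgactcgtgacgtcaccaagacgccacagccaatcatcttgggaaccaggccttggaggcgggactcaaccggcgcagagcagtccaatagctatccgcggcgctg
Cdc6: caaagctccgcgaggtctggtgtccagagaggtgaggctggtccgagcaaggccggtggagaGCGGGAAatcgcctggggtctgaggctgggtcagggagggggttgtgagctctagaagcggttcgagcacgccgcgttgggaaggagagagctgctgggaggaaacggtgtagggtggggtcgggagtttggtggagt
Cdk1: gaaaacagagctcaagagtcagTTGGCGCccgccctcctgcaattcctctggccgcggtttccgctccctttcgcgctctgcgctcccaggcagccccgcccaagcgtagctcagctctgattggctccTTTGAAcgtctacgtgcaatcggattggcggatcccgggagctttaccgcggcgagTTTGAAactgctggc
Top2a: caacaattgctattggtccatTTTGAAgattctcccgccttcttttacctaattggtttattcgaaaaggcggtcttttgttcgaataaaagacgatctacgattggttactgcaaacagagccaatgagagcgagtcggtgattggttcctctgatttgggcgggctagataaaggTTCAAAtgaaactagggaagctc
Mcm5 held a pair of E2F elements and no CHR element in this stretch, and Cdc6 held a single E2F element. Cdk1 held an E2F element and 2 CHR elements, of which the nearer began 15 bases before the start. Top2a held 2 CHR elements, of which the nearer began 23 bases before the start. The CHR element of Cdca8 began at position 14, counted from the start.

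The search covered 250 bases before to 50 bases after the start, on both strands, and 33 of the 42 genes had a promoter in the table. A gene counted where any of its promoters held the element. A CHR element stood in 15 of 19 mitosis genes (78.9%), in 1 of 12 replication genes (8.33%, Mcm2) and in 20.2% of all 27025 genes. An E2F element stood in 3 of 19 mitosis genes (15.8%), in 7 of 12 replication genes (58.3%) and in 7.79% of all genes. The CCAAT element (CCAAT or ATTGG), which NF-Y binds and whose letters can overlap those of TTGGCGC, stood in 17 of 19 mitosis genes (89.5%), 8 of 12 replication genes (66.7%) and 41.1% of all. A match of letters is a description and not a bound site. The split by element largely followed the split by role, and the genes that passed at day 3 fell on both sides of it.

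Beyond the 5 genes, most of the module leaned the same way at day 3. Of the 41 genes, 34 had a difference above 0 and 7 below, with a median of 0.38, against 0.01 over all genes. In 22 genes (53.7%) every treated mouse lay above every saline mouse, which held for 11.1% of all genes. In 1 gene every treated mouse lay below, as in 10.4% of all genes. An unadjusted p under 0.05 in the upward direction was reached by 21 of the 41 genes and by 9.19% of all genes, and in the downward direction by none of the 41 and by 9.1% of all genes.

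Mitosis genes had the larger median difference, 0.46, with 15 of 22 (68.2%) not overlapping and 3 past the test. Among those that did not pass, Ube2c, the ubiquitin carrier of the anaphase promoting complex, differed by 1.11 ± 0.34 (adjusted p = 0.0782). Its levels were 5.40, 5.78 and 4.68 in treated mice and 4.15, 4.11 and 4.27 in saline mice, without overlap. Ccna2, the cyclin of S and G2 phase, differed by 0.95 (adjusted p = 0.0662), Nusap1, a spindle microtubule protein, by 0.86 (adjusted p = 0.0580), and Ccnb2, a mitotic cyclin, by 0.85 (adjusted p = 0.153). Mki67, the common proliferation marker, differed by 0.83 (adjusted p = 0.158) and overlapped: treated mice had 6.37, 6.67 and 5.25, saline mice 5.20, 5.65 and 4.95. Racgap1, which acts in cytokinesis, came nearest to the threshold (0.44 ± 0.12, 1.35-fold, adjusted p = 0.0529). It read 4.76, 5.06 and 4.58 in treated mice and 4.38, 4.28 and 4.44 in saline mice, with no overlap. The partners of Cdca8 in the passenger complex, Birc5 (survivin) and the kinase Aurkb, differed by 0.80 and 0.48 with adjusted p of 0.0599 and 0.0879. The spindle checkpoint kinase Bub1 differed by 0.21 and Bub1b by -0.06. Cenpa, the histone variant of centromeres, and Tpx2, which activates Aurka, had differences of -0.02 and -0.16. On the probe sets used, the lean was thus not shared by every mitosis gene. The other probe sets of Tpx2 differed by 0.34, 0.03 and -0.25, those of Bub1b by 0.23 and 0.18, and those of Cenpa by 0.004 and -0.20. The other mitosis genes differed by 0.51 (Cdca3), 0.39 (the mitotic kinase Plk1), 0.38 (Prc1 and the kinesin Kif20a), 0.23 (the kinase Aurka), 0.14 (Kif11) and 0.11 (Cdc20), and none of these passed.

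Replication genes had a median difference of 0.29, with 2 of 14 past the test and 6 (42.9%) not overlapping. Among the MCM subunits the differences were 0.25 for Mcm2, 0.41 for Mcm3, 0.32 for Mcm4, 1.26 for Mcm6 and 0.01 for Mcm7, and Mcm5 alone of the 6 passed. Mcm6 ranged more widely among saline mice than it differed between groups: treated mice had 6.96, 6.94 and 6.35, saline mice 4.81, 6.51 and 5.13 (adjusted p = 0.199). Pcna, the sliding clamp of the polymerases, was bright and read 10.39, 10.22 and 10.16 in treated mice, against 9.74, 9.94 and 10.11 in saline mice. The groups were separate by a narrow margin, with a difference of 0.33 ± 0.10 (adjusted p = 0.0666). The small subunit of ribonucleotide reductase, Rrm2, differed by 0.95 (adjusted p = 0.0610), and the large subunit, Rrm1, by 0.05 (adjusted p = 0.811). Differences of the nucleotide enzymes Tyms and Tk1 were -0.04 and -0.06, and that of the checkpoint kinase Chek1 was 0.16. Geminin (Gmnn), the inhibitor of origin licensing, was the gene with every treated mouse below every saline mouse: 7.31, 7.42 and 7.44 in treated mice and 7.45, 7.78 and 7.64 in saline livers (difference -0.23, adjusted p = 0.384).

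The 5 G1 genes gave no call at day 3. Cyclin D1 (Ccnd1), the partner of Cdk4 and Cdk6, had 9.25, 9.90 and 8.89 in treated mice and 8.63, 8.73 and 9.35 in saline mice, which overlapped. The E-type cyclins Ccne1 and Ccne2 differed by 0.21 and 0.28. The transcription factors E2f1 and Foxm1, regulators of the replication and mitosis genes, differed by 0.03 and -0.00. Levels of those factors are RNA levels and do not measure their activity.

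**Figure D2:**
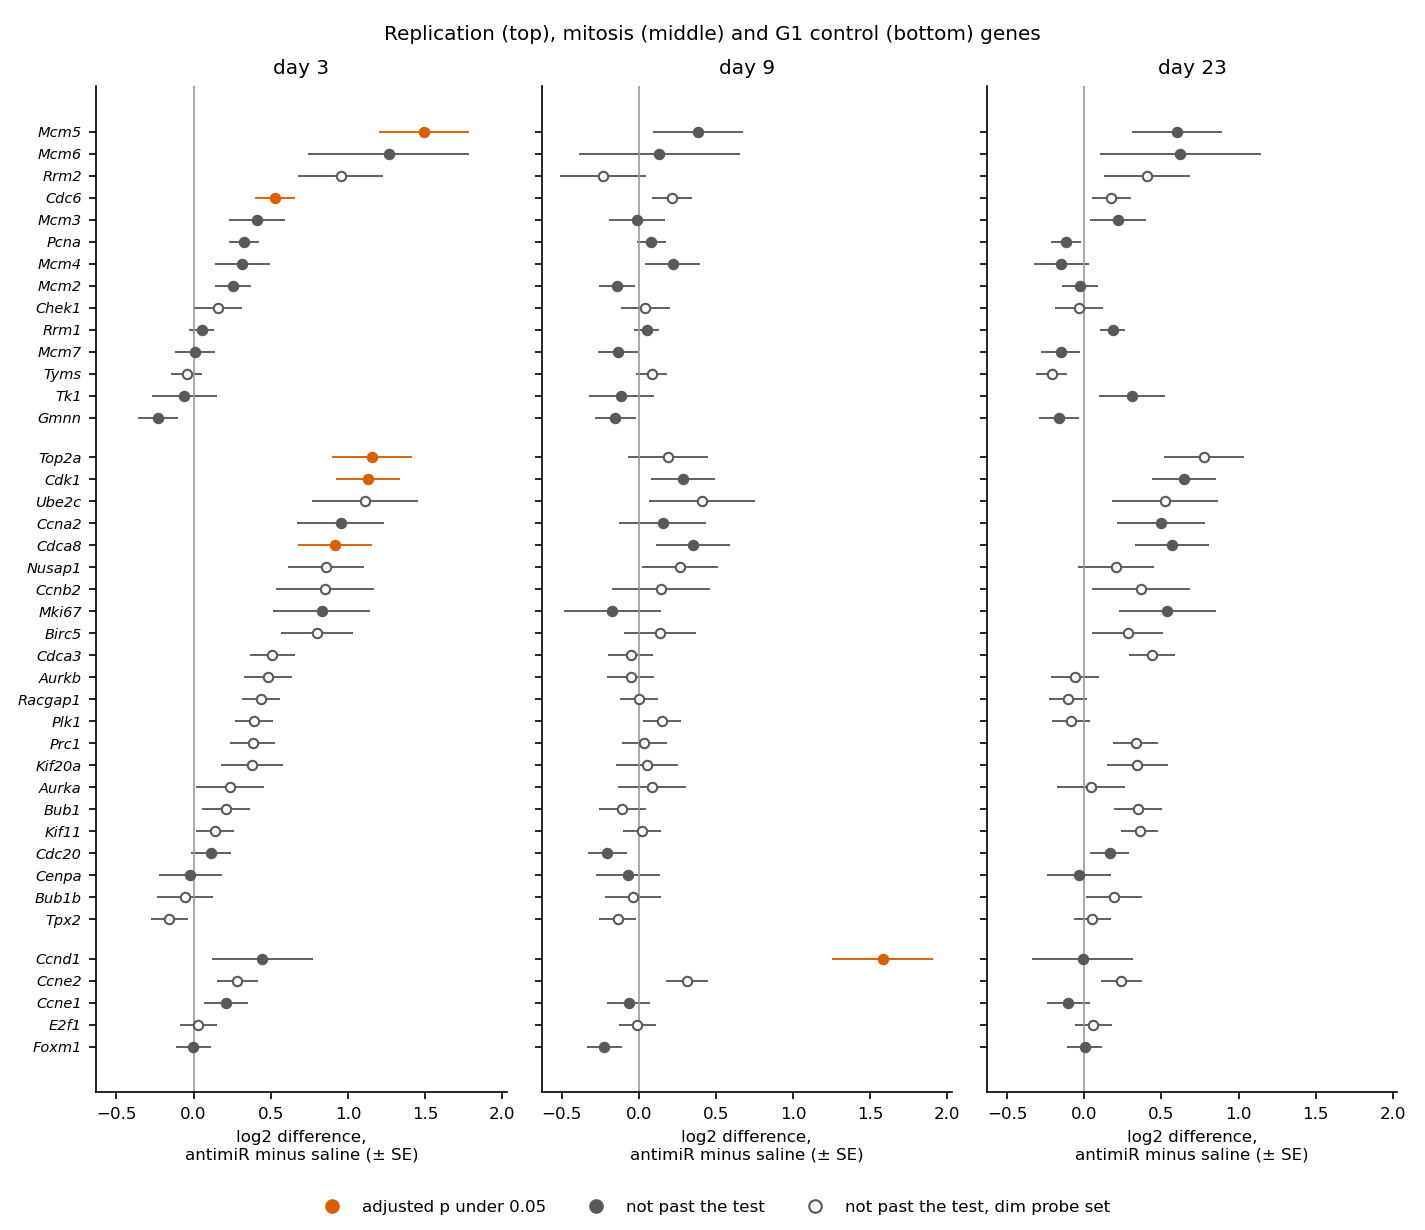
Difference in log2 level, antimiR minus saline, for the 41 genes at day 3, 9 and 23, grouped by role; bars are ± SE of the fit, orange points passed the adjusted test, and of the others grey points are brighter and open points dim probe sets. Differences reach 1.49 (Mcm5) at day 3, cluster near 0 at day 9 except Ccnd1 (1.58), and lean upward in mitosis genes at day 23.

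Treated replicate 3 had the lowest value of its group in 30 of 41 genes (73.2%) at day 3 and in 18 of 22 mitosis genes (81.8%), against 34.4% of all genes. Averaged over mitosis genes, treated mice stood at 5.08, 5.14 and 4.61 and saline mice at 4.37, 4.45 and 4.41. The count of 5 genes was 17 without treated replicate 3 (16 higher, and Tpx2 lower on the probe set used). It was 3 without treated replicate 1, 2 without treated replicate 2 and 3 without saline replicate 2. It was 10 without saline replicate 3 of day 23, which enters through the shared estimate of the spread, and 1 (Mcm5) in a fit on the 6 arrays of day 3 alone. Mcm5 and Cdk1 kept their call whichever array of day 3 was left out. Cdca8 lost it in 5 of those 6 omissions, with adjusted p up to 0.146. Cdc6 and Top2a lost it in 3 and 2 of them.

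Probe sets of a gene did not always agree. The other probe sets of Mcm5 differed by 0.60 and 0.09, those of Cdca8 by 0.31 and 0.22, and those of Top2a by 0.04 and -0.04, and none of these passed. The Mcm5 and Cdca8 probe sets used here carry the suffixes x_at and s_at, which mark probes that may match more than 1 transcript. For Racgap1, a dimmer probe set differed by 0.46 and passed a test of all 34945 probe sets with 1 gene symbol, added after the data were seen (adjusted p = 0.0218). With a gene's probe sets averaged, the differences were 0.73 for Mcm5 (adjusted p = 0.0382), 0.38 for Top2a (0.0461) and 0.48 for Cdca8 (0.0554), which lost its call, while Racgap1 gained one (0.31, adjusted p = 0.0178). Cdk1 and Cdc6 had a single probe set each.

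Some marker lists of other cells also differed at day 3. Of 15 macrophage markers, 8 were higher in treated livers (Adgre1, Cd68, Clec4f, Marco, Vsig4, Cd5l, C1qc and Mpeg1), and the median difference of the list was 0.81. The list averaged 8.83, 9.37 and 8.81 in treated mice and 8.19, 7.78 and 8.76 in saline mice, and none of its markers was dim on all arrays. Of 12 markers of T and NK cells, 4 were higher (Ccl5, Gzma, Gzmb and Ncr1), with list averages of 5.40 to 5.55 in treated livers, against 4.84 to 5.03 in saline livers, and Cd2 was dim on all 18 arrays. B and plasma cell markers averaged 4.95 to 5.20 in treated livers, against 4.77 to 4.92 in saline livers, with Ms4a1 dim on all arrays. Stellate cell markers averaged 7.52 to 7.89 in treated livers, against 7.63 to 7.84 in saline livers. Erythroid markers averaged 5.42 to 5.49 in treated livers, against 5.46 to 5.52 in saline livers. The 10 hepatocyte markers gave no call at any day. The log2 ratio of the 3′ to the 5′ beta-actin control, a sign of RNA quality, was 1.01 to 1.05 in treated livers, against 0.76 to 0.85 in saline livers. The part of these cells and of RNA quality in the cell cycle result was not tested. Treated replicate 2 was the highest and replicate 3 the lowest of the treated mice on mitosis genes, macrophage markers and T and NK cell markers. Replicates 1 and 3 were close on macrophage (8.83 and 8.81) and T and NK cell markers (5.41 and 5.40). On mitosis genes they were apart (5.08 and 4.61). Replicate 1 was the highest on endothelial (7.85, 7.82 and 7.51) and neutrophil markers (5.47, 5.41 and 5.22) and on B and plasma cell markers. Saline replicate 3 averaged 8.76 on macrophage markers and 4.41 on mitosis genes. Clec4g, an endothelial marker, and Epcam, a cholangiocyte marker, were also higher at day 3 in the limma test.

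**Figure D3:**
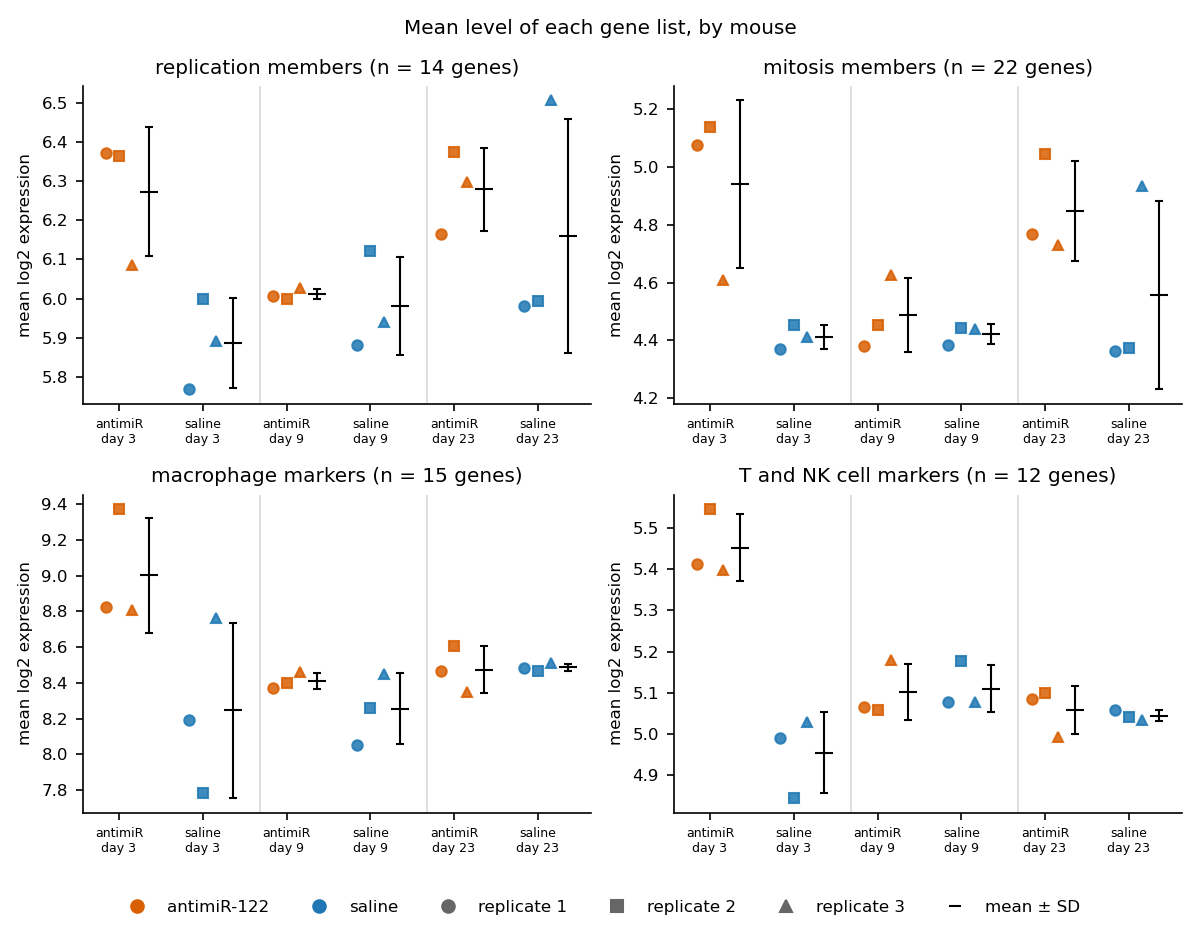
Mean log2 level per mouse of 14 replication genes, 22 mitosis genes, 15 macrophage markers and 12 T and NK cell markers, by day, with antimiR mice left of saline mice; each point is a mouse and black marks are the mean ± SD of 3 mice. All 4 lists separate at day 3 (mitosis genes at 4.61 to 5.14 in antimiR mice and 4.37 to 4.45 in saline mice) and overlap at day 9.

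Genes of the same pathways outside the module were read as 3 further lists. Over all genes, 2.63% were higher and 1.88% lower at day 3 in the same test. Of 50 measured replication and repair genes, 2 were higher at day 3: Cdt1, which loads the helicase together with Cdc6 (difference 0.87, 1.83-fold, adjusted p = 0.00352), and Orc2, of the origin recognition complex (0.58, 1.50-fold, adjusted p = 0.0292). The median of that list was 0.08. In 14% of its genes every treated mouse lay above every saline mouse, against 11.1% of all genes. Of 52 further mitosis genes, 4 were higher at day 3: Melk, a mitotic kinase (0.73, adjusted p = 0.00237), the kinetochore proteins Cenpf (0.50, adjusted p = 0.00810) and Ndc80 (0.53, adjusted p = 0.0140), and Incenp, the scaffold of the passenger complex (0.69, adjusted p = 0.0199). Their median was 0.27, with 45 of 52 above 0 and none past the test downward, and 38.5% did not overlap upward. Of 34 regulators, Tfdp2, a dimerisation partner of E2F factors, rose 1.98-fold (adjusted p = 0.000221) and Rbl2, a pocket protein that represses E2F targets, rose 1.38-fold (adjusted p = 0.0216). The inhibitor Cdkn1a differed by 0.03 (adjusted p = 0.971). Of the regulators, 8.82% did not overlap upward. As in the module, mitosis genes leaned further upward than replication genes, a difference in medians that was not tested.

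At day 9, cyclin D1 was the only member to pass the test, and it was higher in treated livers. Over all genes, 1.91% rose and 0.896% fell at this day. Ccnd1 had levels of 9.82, 9.39 and 10.56 in treated mice, against 8.88, 7.58 and 8.56 in saline mice. The groups did not overlap, and the difference was 1.58 ± 0.33 (SE, n = 3 each), or 2.99-fold (adjusted p = 0.0163). All 3 Ccnd1 probe sets differed at this day, by 1.58, 1.63 and 1.93, with adjusted p of 0.0196, 0.0157 and 0.0145 over all probe sets. The call was lost without treated replicate 3 (adjusted p = 0.0856), without saline replicate 2 (0.0602) and in a fit on the 6 arrays of day 9 alone (0.0937). From day 3 to day 9, Ccnd1 changed by 0.57 in treated and -0.56 in saline livers, and neither change passed the limma test. Stellate cell markers also differed at day 9, with 3 of 10 higher in treated livers (Reln, Dcn and Hand2). Their list averages were 7.59 to 7.73 in treated livers, against 7.24 to 7.39 in saline livers. The group mean of that list went from 7.73 at day 3 to 7.31 at day 9 in saline livers, and from 7.68 to 7.67 in treated livers. The endothelial marker Clec4g was higher too (adjusted p = 0.0364). Hepatocyte markers averaged 12.90 to 12.92 in treated livers, against 12.69 to 12.79 in saline livers, and B and plasma cell markers 4.68 to 4.76 against 4.98 to 5.06, with no single marker of either list past the test. The log2 ratio of the 3′ to the 5′ beta-actin control was 1.12 to 1.16 in treated livers, against 0.86 to 0.98 in saline livers. The part of these cells and of RNA quality in the Ccnd1 result was not tested.

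The other 40 members lay between -0.23 (Rrm2) and 0.41 (Ube2c) at day 9. The median difference was 0.04 over all 41, 0.05 in replication genes and 0.04 in mitosis genes, and 7 of 41 (17.1%) had every treated mouse above every saline mouse, against 10.4% of all genes. Rrm2 had every treated mouse below (difference -0.23), as 11.2% of all genes did. At an unadjusted p under 0.05, 2 genes were higher (Ccnd1 and Ccne2) and 0 lower, against 8.62% higher and 8.16% lower over all genes. Ccne2, the late G1 cyclin, had 3.36, 3.80 and 3.51 in treated mice and 3.43, 3.16 and 3.15 in saline mice (difference 0.31 ± 0.13, 1.24-fold, adjusted p = 0.249). Foxm1 had 5.38, 5.43 and 5.34 in treated mice and 5.56, 5.84 and 5.42 in saline mice (-0.22 ± 0.11, adjusted p = 0.338). Treated and saline mice overlapped in both genes. Cdc20, the activator of the anaphase promoting complex, had 5.86, 6.32 and 6.11 in treated mice and 6.35, 6.35 and 6.22 in saline mice (-0.20 ± 0.13, adjusted p = 0.447), and its other probe sets differed upward by 0.51 and 0.46. Among the genes of day 3, Cdc6 (3.15, 3.46 and 3.41 in treated, 3.14, 3.14 and 3.10 in saline mice) differed by 0.21 and Cdca8 (5.34, 5.28 and 5.40 in treated, 5.24, 5.01 and 4.71 in saline mice) by 0.35, with adjusted p of 0.430 and 0.498. Mcm5, Cdk1 and Top2a differed by 0.38, 0.29 and 0.19, with adjusted p of 0.553, 0.535 and 0.775. The mitosis genes averaged 4.38, 4.45 and 4.63 in treated mice and 4.38, 4.44 and 4.44 in saline mice, which overlapped.

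Among the 34 regulators at day 9, Wee1, the kinase that holds Cdk1 inactive, rose 1.57-fold (adjusted p = 0.0212). Cdkn1c, an inhibitor of cyclin-dependent kinases, rose 1.50-fold (adjusted p = 0.0247). Over all genes, 1.91% rose in this test. In 23.5% of the regulators every treated mouse lay above every saline mouse, against 10.4% of all genes.

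At day 23, none of the 41 genes passed the limma test, nor under any of 9 other settings, and 0.385% of all genes did. At an unadjusted p under 0.05, 8 of 41 were higher and 0 lower, against 5.88% higher and 7.99% lower over all genes. The differences ran from -0.21 (Tyms) to 0.78 (Top2a), with a median of 0.19 over the module, 0.34 in mitosis genes and 0.07 in replication genes. Of the 22 mitosis genes, 18 were above 0 and 5 (22.7%) did not overlap, where 8.12% of all genes had every treated mouse above every saline mouse.

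Cdk1 had 6.43, 6.64 and 6.22 in treated mice and 5.41, 5.87 and 6.08 in saline mice, apart by a narrow margin (0.65 ± 0.21, 1.57-fold, adjusted p = 0.164). Top2a had 5.04, 5.46 and 5.05 in treated mice and 4.14, 4.05 and 5.02 in saline mice (0.78 ± 0.26, 1.72-fold, adjusted p = 0.174). In both genes a saline mouse, replicate 3, came close to the treated mice. Cdca3, a trigger of mitotic entry, had 5.11, 5.26 and 4.78 in treated mice and 4.39, 4.51 and 4.93 in saline mice (0.44 ± 0.15, 1.36-fold, adjusted p = 0.179). Kif11, the motor that separates spindle poles, had 3.87, 4.10 and 4.11 in treated mice and 3.55, 3.63 and 3.82 in saline mice (0.36 ± 0.12, 1.28-fold, adjusted p = 0.180). Prc1, which bundles microtubules of the central spindle, had 4.75, 5.13 and 4.88 in treated mice and 4.65, 4.45 and 4.67 in saline mice (0.33 ± 0.15, 1.26-fold, adjusted p = 0.319). Cdca8 had 5.78, 5.80 and 5.52 in treated mice and 4.94, 4.62 and 5.84 in saline mice (0.57 ± 0.24, 1.48-fold, adjusted p = 0.302). Its highest mouse of all 6 was saline replicate 3. Mcm5 differed by 0.60 (adjusted p = 0.372), with 5.85, 6.53 and 6.39 in treated mice and 5.15, 5.39 and 6.42 in saline mice. Other probe sets of these genes differed less. Those of Top2a differed by 0.007 and -0.14, of Cdca8 by -0.16 and 0.01, and of Cdca3 by 0.03 and 0.14. Those of Kif11 differed by 0.12 and 0.06, of Mcm5 by 0.26 and -0.05, and that of Prc1 by 0.09. Ccnd1 was alike in both groups on the probe set used (-0.01 ± 0.33). It had 9.88, 10.21 and 9.84 in treated mice and 9.90, 10.21 and 9.86 in saline mice. Its other probe sets differed by 0.63 and 0.30, with limma adjusted p of 0.523 and 0.766 over all probe sets.

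Saline replicate 3 of day 23 was the highest of its group in 34 of 41 genes (82.9%) and in 21 of 22 mitosis genes (95.5%), against 37.2% of all genes. Mitosis genes averaged 4.77, 5.05 and 4.73 in treated mice and 4.36, 4.37 and 4.93 in saline mice. That mouse lay within the treated range for mitosis genes. Its macrophage average was 8.51, beside 8.47 and 8.48 in the other saline mice. On 7 erythroid markers, of which 3 were dim on all 18 arrays, it averaged 5.83, beside 5.52 and 5.16. The part of these cells in its mitosis level was not tested. The median difference of mitosis genes was 0.45 without saline replicate 3, 0.16 without treated replicate 2 and 0.17 without saline replicate 2. That of replication genes ran from -0.044 to 0.16 as single arrays were left out, so its sign was not stable. With limma, 0 genes of the module passed in any of these omissions.

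**Figure D4:**
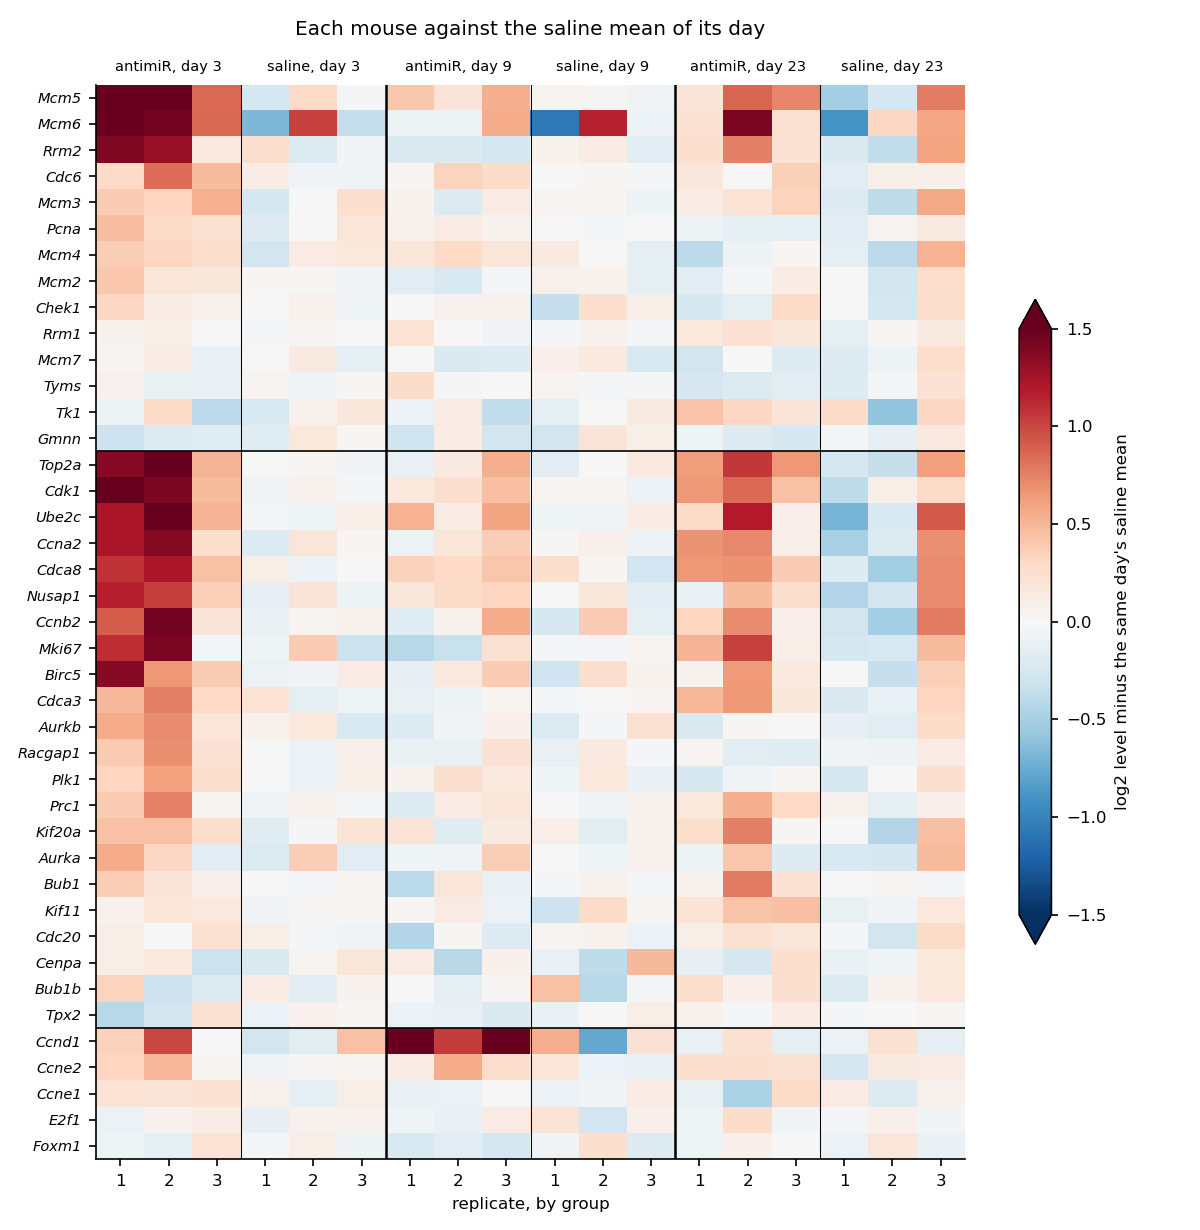
Log2 level of each of the 41 genes in each of the 18 mice, minus the saline mean of the same day; genes run down by role (replication, mitosis, G1), mice run across by day with antimiR left of saline, and red is higher. Over mitosis genes the highest medians are those of treated replicates 1 and 2 of day 3 (0.52 and 0.70) and treated replicate 2 of day 23 (0.59), and saline replicate 3 of day 23 stands at 0.31.

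The 3 treated mice of day 23 were hybridised on both array sets named in the labels, p0617 and p0621, and the p0621 arrays are the ones compared with the saline mice above. Between the 2 arrays of a mouse, members differed by a median size of 0.16, beside 0.12 over all genes. Ccna2 differed most, by 0.29, -1.01 and -0.83 (p0621 minus p0617) in mice 36, 37 and 38. The order of the mice on mitosis genes was the same on both sets, with averages of 4.81, 5.16 and 4.74 on p0617. Levels of day 23 and of the earlier days come from different array sets and were not set against each other.

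Whether the drug effect differed between days was tested directly, and no member passed for any pair of days (limma, 0 of 41). Over all genes 0.143% passed for day 9 minus day 3, 0.302% for day 23 minus day 3 and 0.0055% for day 23 minus day 9. At an unadjusted p under 0.05, the effect at day 9 was smaller than at day 3 in 9 genes and larger in 1, Ccnd1, where 6.26% of all genes were smaller and 5.38% larger. The effect at day 23 was smaller than at day 3 in 5 genes, and in 6.21% of all genes. Between day 23 and day 9, Cdca3 (larger) and Ccnd1 (smaller) passed the unadjusted threshold, as 8.69% of all genes did. The median change of effect was -0.32 for day 9 minus day 3. Cdk1 changed by -0.84 ± 0.30 (adjusted p = 0.273) and Rrm2 by -1.19 ± 0.39 (adjusted p = 0.246), and these 2 passed once treated replicate 3 of day 3 was left out. For Ccnd1 the effect was 1.14 ± 0.46 larger at day 9 than at day 3 (adjusted p = 0.343) and changed by -1.59 ± 0.46 between day 9 and day 23 (adjusted p = 0.375).

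Within each arm, day 9 was also set against day 3, both on the p0617 arrays. These comparisons share their mice with the drug comparisons and are not independent of them. In treated livers 7 genes were lower at day 9 than at day 3 and 1 was higher, where 4.95% of all genes were lower and 7.28% higher. The lower genes were Mki67 (-1.16), Top2a (-1.06), Mcm5 (-1.02), Rrm2 (-0.89), Cdk1 (-0.80), Racgap1 (-0.39) and Mcm2 (-0.39), with adjusted p between 0.0138 and 0.0466. Gmnn was the higher one (0.46, adjusted p = 0.0301). In saline livers 0 of 41 genes passed with limma, 1 had an unadjusted p under 0.05, Gmnn at 0.38 (adjusted p = 0.110), and the median change was 0.01. Of all genes, 5.88% passed there and 18% had such an unadjusted p. The count of 8 in treated livers was 0 without treated replicate 1 or 2 of day 3, 13 without replicate 3, and 1 or 2 without treated replicate 1 or 2 of day 9. It was 4 in a fit on those arrays alone.

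**Figure D5:**
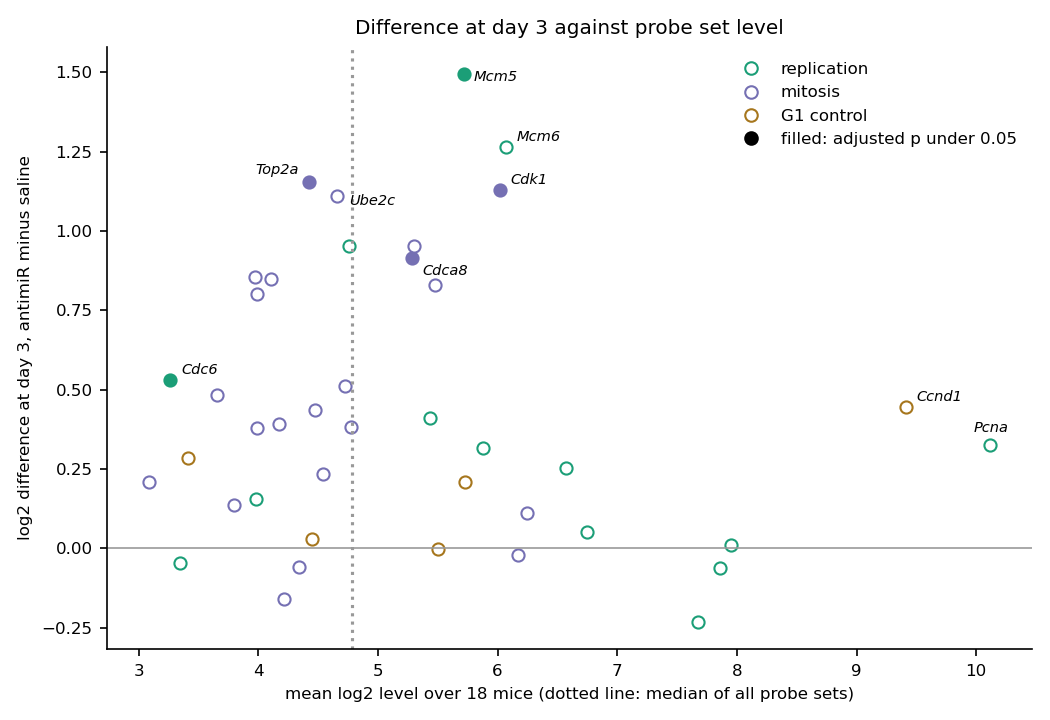
Difference at day 3 in log2 level, antimiR minus saline, against the mean log2 level over 18 arrays, 1 point per gene of the module, coloured by role and filled where the adjusted test was passed, with a dotted line at 4.79, the median of all probe sets. Dim genes (median difference 0.39) and brighter genes (median 0.32) both lean upward, and 2 of 22 dim and 3 of 19 brighter genes passed the test. Level and role are mixed here, as 16 of the 22 dim genes are mitosis genes. The brighter mitosis genes had a median of 0.87, against 0.46 over all 22 mitosis genes.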

How the data were processed

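The deposited log2 levels of each probe set came from RMA, per the submitters' processing notes. Its version and the arrays it ran on jointly were not given in the sources. The platform annotation named the probe sets: of 45101, 34945 had 1 gene symbol, 932 had several, 9160 had none and 64 were controls. Each gene was read on its brightest probe set (mean of 18 arrays), which for the members was also the highest over all 21. Entrez identifiers of 41 of 41 members matched RefSeq (GRCm38.p6), and 0 symbols changed. Promoter sequences are RefSeq's.

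Group means of 18 arrays (1 per mouse, p0621 for day 23) were fitted with limma 3.58.1 in R 4.3.3 (lmFit, eBayes, 12 residual and 4.85 prior degrees of freedom). P-values were two-sided and adjusted by Benjamini-Hochberg over 18193 genes, with a threshold of 0.05. No covariate was used. Tested on simulated data, the day 3 comparison recovered 53.7% of changes of 0.5 (log2) and 91% of changes of 1, among 18193 genes. The changed genes were drawn at random from all genes, with no correlation between genes. These shares are therefore not those of the members, of which Ube2c (SE 0.34) and Mcm6 (SE 0.52) varied widely.

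The members, the lists of other genes and the rule for naming genes were chosen with earlier results of these data known. Full values are given for members past the threshold and for up to 6 members a day with the lowest unadjusted p, and up to 4 genes a day of each further list. The mouse values of Ube2c, Mki67, Mcm6, Pcna and Gmnn were added after they were seen. 1 result of the further lists is not reported here. The alternatives were quantile normalization, median centring, each comparison fitted alone, a filter at the median level, averaged probe sets, a robust prior with an intensity trend, a replicate block, p0617 in place of p0621 arrays for treated day 23 mice, and leaving out single arrays. A test of every probe set was added after the data were seen. Figures were drawn with Python 3.11.15 and matplotlib 3.10.9.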

Additional observations from a re-analysis of the deposited data

How the results depend on the processing

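Of the counts and medians recomputed under other settings, 107 values moved by less than the spread between mice or, for counts, stayed close to the value given, and 8 did not. A fit on the arrays of a comparison alone gave 1 member at day 3, 0 at day 9 and 4 between day 9 and day 3 in treated livers; that last count was 5 under quantile normalization, under median centring and above the median level. The median difference of mitosis genes at day 3 was 0.87 over the 6 genes above the median level, and that of replication genes at day 9 was -0.019 with averaged probe sets. Cdc20 at day 9 turned to 0.26 with averaged probe sets. Ccnd1 at day 23 turned to 0.31 with averaged probe sets, and ran from -0.13 to 0.10 as single arrays were left out. It was 0.023 with the p0617 arrays of the treated mice, where treatment and array set cannot be told apart. Over the omission of each array in turn, counts ran from 2 to 17 at day 3, 0 to 1 at day 9, 0 to 0 at day 23, 0 to 2 for day 9 minus day 3, 0 to 13 in treated mice and 0 to 1 in saline livers between these days (the 1 being Gmnn, without saline replicate 1 of day 9). The medians ran from 0.28 to 0.43 over all members at day 3, from -0.036 to 0.080 at day 9 and from -0.043 to 0.071 in replication genes at day 9, and at day 23 from 0.16 to 0.45 in mitosis genes and from -0.044 to 0.16 in replication genes. Causes of these shifts were not tested. Averaged probe sets also lowered the day 3 differences of Top2a to 0.38, Mcm5 to 0.73 and Cdca8 to 0.48. The call of Cdca8 was lost in 3 of 8 other settings. Quantile normalization and median centring gave no change of call at day 3. Same-numbered treated and saline mice deviated together little, with correlations of -0.14 to 0.08. With 3 mice a group, this cannot show whether mice were paired or handled together. With the replicate block the counts were 4, 1 and 0 at day 3, 9 and 23 and 6 between day 9 and day 3 in treated livers, 0 in saline livers and 0 for each change of effect; medians were the same by construction, at 0.38, 0.04 and 0.19, and Cdca8 at day 3 had an adjusted p of 0.0588. Dim signal limits what can be seen: 22 of 41 members lay under the median level.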

Other observations

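Mcm6, a helicase subunit that did not pass at any day, varied between the mice of a group. At day 9 it read 5.37, 5.38 and 6.01 in treated mice, against 4.38, 6.61 and 5.37 in saline mice. At day 23 it read 6.50, 7.69 and 6.50 in treated mice, against 5.38, 6.59 and 6.86 in saline mice. Its SD was 0.35 in treated and 0.90 in saline mice at day 3, 0.37 in treated and 1.12 in saline mice at day 9, and 0.69 in treated and 0.78 in saline mice at day 23.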
